A study of Mus musculus with 24 samples.

Results

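A set of 10 genes that carry fatty acids into muscle and burn them was followed here in the gastrocnemius of young and adult mice after a burn. They are Cd36, Fabp3, Fabp5, Cpt1b, Acadl, Acadm, Hadhb, Acaa2, Ucp3 and Ppargc1a, and they were found by symbol among the 55401 genes of the count table, all 10 of 10. The mice were male C57BL6, and a burn group and a sham group were made at either age with 3 mice in each. Young mice were 4 weeks old at arrival and 5 weeks old at the procedure, and adult mice were 10 and 11 weeks old. Burned mice received a full-thickness scald over 25% of the body surface under isoflurane and buprenorphine, with saline and lactated Ringer's solution. Sham mice were anaesthetised and given the analgesic, but neither burned nor resuscitated with fluid, so burn and resuscitation cannot be told apart. The muscle was taken at 24 h, away from the wound, and its poly-A RNA was sequenced as 12 libraries, 1 for each mouse.

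Long-chain fatty acids enter a muscle fibre through membrane proteins such as CD36 and are carried in the cytosol by fatty acid binding proteins. The carnitine shuttle, with CPT1B at its gate, moves them into mitochondria, where acyl-CoA dehydrogenases and the trifunctional protein shorten them step by step and a thiolase releases acetyl-CoA. Slow and oxidative fibres are rich in this machinery, and the nuclear receptors of the PPAR and ERR families, with the coactivator PGC-1alpha, drive many of its genes.

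Total counts ran from 4392605 to 5688512 per library. Young burn replicate 2 stood apart, with a mean correlation to the other mice of its group of 0.941, against 0.960 and 0.964 for young burn replicates 1 and 3 and 0.976 to 0.982 in the other groups. The legend of the study's heat map leaves 1 young burn animal out, and the map shows replicates 1 and 3. Tests are given for 11 libraries, leaving this mouse out, and for each member the young change and the age difference follow for all 12. With 2 young burn mice in the first setting and 3 mice in every other group, the precision rests on few animals. Levels are CPM, read counts scaled to library size with TMM factors set over the 12 libraries (normalized CPM) and changes are log2 fold changes of edgeR's quasi-likelihood test. Calls were made at an adjusted p (Benjamini-Hochberg) under 0.05 over all genes tested, 12651 in the 11 libraries and 12408 in the 12, and all 10 members were tested in both.

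The effect of burn differed between the ages for 2 of these genes, Fabp3, the cytosolic carrier of heart and muscle, and Acaa2, the mitochondrial thiolase. In adult mice both fell after burn. In young mice Fabp3 rose, and Fabp5, the carrier better known from skin, fat and macrophages, rose more than any other member. These calls, except that of Fabp5 in young mice, were lost when young burn replicate 2 was included.

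Levels per length of exon sequence were compared without young burn replicate 2. Fabp3 had the highest level of the 10 in every group, with a mean of 376.5 RPKM in young sham, 584 in young burn, 499 in adult sham and 308 in adult burn. Acadl, Acaa2, Cd36 and Acadm followed at means of 59.0 to 162 RPKM. Acadl and Acaa2 overlapped in adult sham, and so did Cd36 and Acadm, while Acaa2 and Cd36 overlapped in young sham and young burn. Hadhb and Ucp3 lay between 18.6 and 31.4 RPKM on average and overlapped in young sham, and the coactivator gene Ppargc1a between 5.55 and 6.53 RPKM. The order differed between the groups in the place of Acaa2 and of Fabp5. Acaa2 had a higher mean than Cd36 in every group but adult burn, where it lay below Cd36 at 74.5 against 92.7 RPKM, without overlap. Fabp5 lay below Ppargc1a in adult sham with 4.48 RPKM, overlapped it in young sham and adult burn, and reached an overlap with Ucp3 in young burn with 16.6 RPKM. With replicate 2 the young burn mean fell from 481 to 389 CPM for Fabp3, from 194 to 159 CPM for Acaa2 and from 58.2 to 43.3 CPM for Ucp3. It fell from 38.6 to 29.4 CPM for Ppargc1a and rose from 409 to 424 CPM for Cd36. The young burn order is given for replicates 1 and 3 alone.

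The windows upstream of the RefSeq transcript starts show which of these genes hold the letters of a PPAR or ERR element near the start. RefSeq windows of 250 bases before to 50 after the start on GRCm38.p6 were at hand for 7 of the 10 members, and Cpt1b, Fabp5 and Acaa2 had no entry. The core AGGTCA of PPAR elements, searched on both strands, was found in 3 of the 7 windows, those of Acadm, Cd36 and Ucp3, and in 16.3% of all 32851 windows. Allowing up to 2 different letters, 2 cores in the same direction with 1 base between them were found in Cd36 and Ucp3, and in 3.86% of all windows. The ERR element TCAAGGTCA, which contains the core, was in none of the 7 windows and in 0.423% of all windows. Neither core nor ERR element was found in the Fabp3 window, and a link of these letters to the burn response was not tested. A match, or its lack, describes the letters of this window and says nothing of a factor's binding. The 4 sequences below are shown because Fabp3 carries the main result and the other genes hold the core, which is in capitals in either orientation. The Fabp3 sequence is chr4:130308488-130308594 on the + strand, upstream of the annotated transcript start and overlapping an exon of Gm10570 on the other strand. The Ucp3 sequence is chr7:100472917-100472982 on the + strand, under the span of Gm10603 on the other strand but outside its exons. The Cd36 sequence is chr5:17836089-17836146 on the - strand, in an intron of longer Cd36 transcripts. The Acadm sequence is chr3:153944857-153944893 on the - strand, outside any annotated gene.
Fabp3: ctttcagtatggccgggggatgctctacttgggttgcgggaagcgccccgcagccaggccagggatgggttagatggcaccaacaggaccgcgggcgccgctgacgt
Ucp3: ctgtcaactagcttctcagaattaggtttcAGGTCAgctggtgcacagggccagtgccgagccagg
Cd36: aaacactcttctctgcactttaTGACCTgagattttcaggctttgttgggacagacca
Acadm: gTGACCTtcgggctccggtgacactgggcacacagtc

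**Figure D1:**
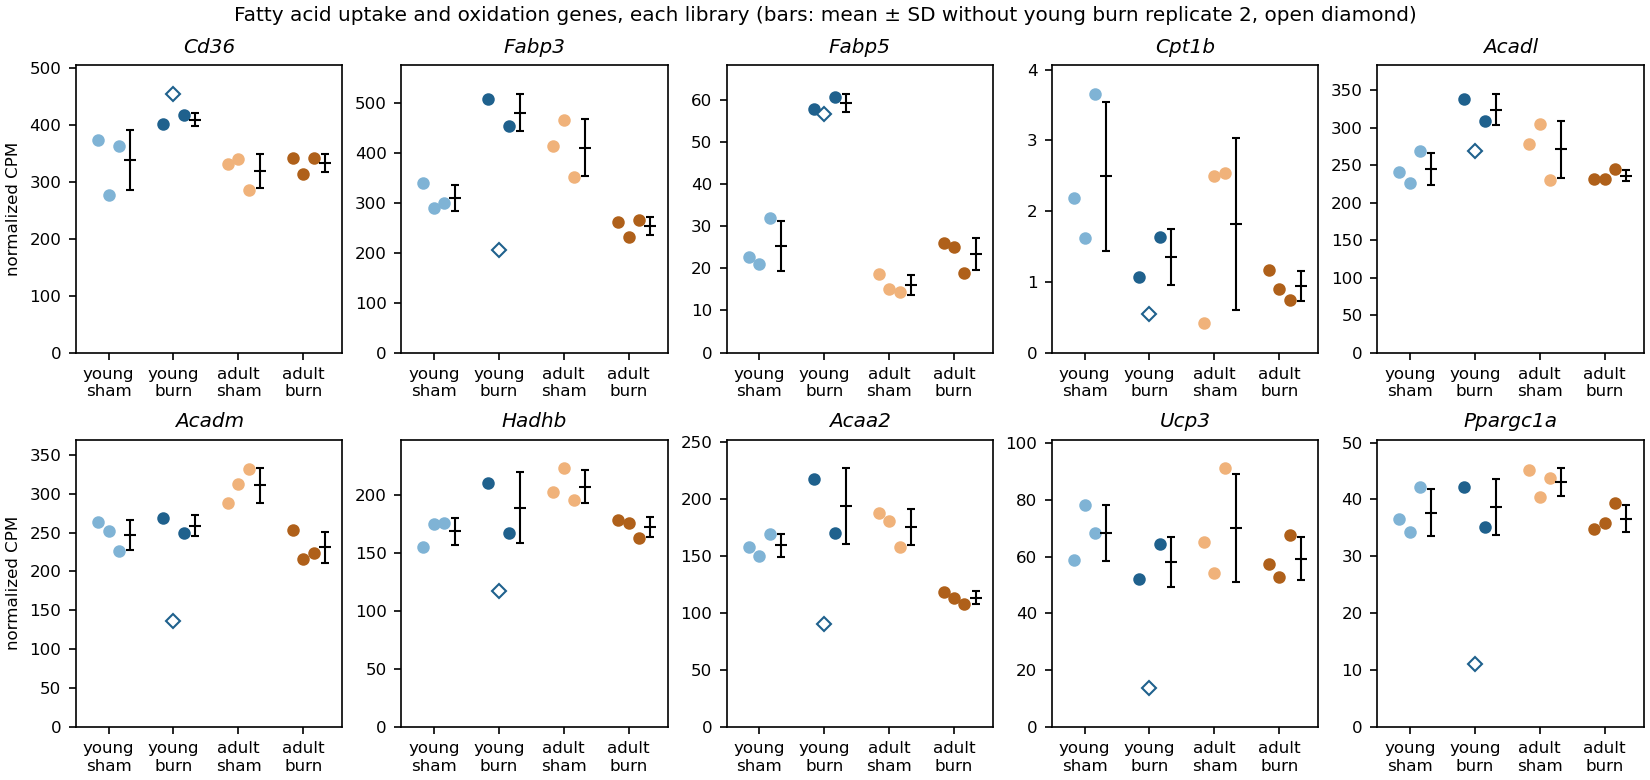
Normalized CPM (vertical axis, from 0) of each of the 10 genes in every library of the 4 groups; dots are mice, the open diamond is young burn replicate 2, and the bars give mean ± SD without that mouse. In Fabp3 and Acaa2 the 3 adult burn mice lie below the 3 adult sham mice, and in Fabp5 all young burn mice lie above every other library.

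Among the uptake genes, Fabp3 (chromosome 4, 130308595 to 130315463 on GRCm38) moved in opposite directions at the 2 ages. Fabp3 stood at 414, 466 and 351 CPM in the adult sham mice and at 262, 232 and 266 CPM in the adult burn mice. It stood at 340.0, 289 and 300.4 CPM in the young sham mice and at 507 and 454 CPM in young burn replicates 1 and 3, but at 206 CPM in young burn replicate 2, the lowest of the 12 libraries. The adult burn mice all lay below the adult sham mice, and young burn replicates 1 and 3 above every young sham mouse. After burn Fabp3 fell by 0.70 on the log2 scale in adult mice (SE 0.12, 0.616-fold, edgeR adjusted p = 0.0132) and rose by 0.65 in young mice (SE 0.13, 1.56-fold, edgeR adjusted p = 0.0440). The young change exceeded the adult change by 1.35 (SE 0.17, 95% interval 0.98 to 1.71, edgeR adjusted p = 0.00724), which ranked second of all 12651 genes by p. With young burn replicate 2 included this difference was 1.03 (SE 0.35, edgeR adjusted p = 0.683), and the changes within adult and young mice were -0.70 and 0.33 with adjusted p of 0.653 and 0.472. Of the 823 exon bases of Fabp3, 19.6% are also exon of Gm10570 or Zcchc17 on the other strand. Reads that fall there would be left out of the Fabp3 count if the counting ignored strand.

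Fabp5 (chromosome 3, 10012548 to 10016607) was higher in every burned young mouse than in any other library. Its level was 22.7, 21.1 and 31.9 CPM in young sham and 57.7, 56.6 and 60.7 CPM in young burn, so that young burn replicate 2 lay with its group. In adult mice it was 18.6, 14.96 and 14.4 CPM in sham and 26.0, 24.9 and 18.9 CPM in burn. Fabp5 rose 2.38-fold in young mice (log2 fold change 1.25, SE 0.17, edgeR adjusted p = 0.00531), and 2.32-fold with all 12 libraries (edgeR adjusted p = 0.0185). In adult mice the log2 fold change was 0.54 (SE 0.17) with an adjusted p of 0.170, and the groups did not overlap. The burn effects of both ages differed by 0.71 (SE 0.24, 95% interval 0.19 to 1.23, edgeR adjusted p = 0.329), and by 0.67 in the 12 libraries (edgeR adjusted p = 0.683), so an age difference in the Fabp5 response did not pass the test.

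Fabp5 is also made by macrophages, and macrophage genes moved with it in young mice. The summed level of 10 macrophage markers was 446, 348 and 325 CPM in young sham and 561, 693 and 961 CPM in young burn, against 334, 409 and 341.5 CPM in adult sham and 549, 432 and 409.7 CPM in adult burn. In young mice 10 of 10 had a positive log2 fold change (median 1.07) and an unadjusted p under 0.05, and 4 were called. These were Lyz2, C1qa, C1qb and C1qc, with log2 fold changes of 1.06, 1.24, 1.10 and 1.07. In adult mice 0 were called, though 10 of 10 had a positive log2 fold change (median 0.37) and 3 an unadjusted p under 0.05. The difference between the ages was called for 0 of the 10, and 5 had an unadjusted p under 0.05. Within young burn, replicates 1, 2 and 3 spanned 561 to 961 CPM of macrophage markers while Fabp5 spanned 56.6 to 60.7 CPM. The neutrophil gene S100a9 rose in young mice by 2.43 on the log2 scale, from 0.488 to 1.46 CPM in sham to 3.83 to 5.11 CPM in burn. Of 8 neutrophil markers 2 were tested. In adult burn their log2 fold changes were 1.67 and 1.81, both with an unadjusted p under 0.05 and neither called. Their age differences were 0.26 and 0.62, with 0 at an unadjusted p under 0.05. The sum of the 8 was 9.50 to 9.73 CPM in young burn replicates 1 and 3 (scaled over the 11 libraries) and 27.4 CPM in replicate 2 (scaled over the 12). In all 12 libraries 0 of the macrophage and neutrophil markers were called in young mice, while the 10 macrophage markers and 2 neutrophil markers had an unadjusted p under 0.05. Skin is another source of Fabp5, and the summed level of 8 keratinocyte markers was 11.5 to 12.9 CPM in young sham, 8.49 to 9.91 in young burn, 7.80 to 8.36 in adult sham and 6.77 to 8.96 in adult burn (scaled over the 11 libraries). Krt5, Krt14, Krt1, Krt15 and Dsg3 had 0 counts in every library, Lor was at 0 in some libraries, and most of the sum was Krt10, a keratin of upper epidermis. Krt10 was called higher in young than in adult sham (log2 fold change 0.93), and its young burn change was -0.60 (edgeR adjusted p = 0.178). Sfn, which encodes 14-3-3 sigma, had group means of 1.75 to 2.75 CPM and was not called in any comparison. For fat, the sum of 10 adipocyte markers was 963 to 1287 CPM in young sham and 1330 to 1350 in young burn, without overlap. It was 661.5 to 1207 in adult sham and 960 to 1408 in adult burn (scaled over the 11 libraries). Young burn replicate 2 had 1441 CPM (scaled over the 12). Most of the sum was Fabp4, with means of 953 CPM in young sham and 1132 in young burn, and 0 of the markers were called in either burn comparison. The part of other cells in the Fabp5 value was not tested. In whole muscle a change in the number of cells of a type and in the RNA per cell cannot be told apart.

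Cd36 (chromosome 5, 17781690 to 17888801), the membrane translocase for long-chain fatty acids, was not called in either age. It stood at 374, 277 and 364 CPM in young sham, at 401, 454 and 417 CPM in young burn, at 331, 340.1 and 286 CPM in adult sham, and at 342, 314 and 342 CPM in adult burn. All 3 young burn mice lay above the young sham mice, with a log2 fold change of 0.29 (SE 0.13) and an edgeR adjusted p of 0.297 without replicate 2 and 0.200 with it. In adult mice the groups overlapped and the log2 fold change was 0.06 (95% interval -0.19 to 0.31). The young change exceeded the adult change by 0.23 (SE 0.18), and by 0.27 in the 12 libraries, neither called.

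Cpt1b (chromosome 15, 89416405 to 89425863), the muscle form of the carnitine palmitoyltransferase that limits entry into mitochondria, held only 2 to 15 counts in a library. Of its 3372 exon bases, 81.4% also lie in exons of the readthrough gene Gm44502 on the same strand, which itself had 0 counts in every library. Reads that fall on more than one gene are left out by this way of counting, so the Cpt1b counts cover a small part of the gene and are no measure of its level. The values were 2.19, 1.62 and 3.66 CPM in young sham, 1.08, 0.548 and 1.64 CPM in young burn, 0.414, 2.49 and 2.55 CPM in adult sham, and 1.17, 0.904 and 0.743 CPM in adult burn. Its 95% intervals were wide, from -2.11 to 0.30 in adult mice and from -2.08 to 0.39 in young mice (-2.38 to 0.03 with all 12 libraries). Burn and sham overlapped at either age, while adult burn lay below young sham. The difference between the ages was 0.06 in the 11 and -0.27 in the 12 libraries, neither called.

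The dehydrogenases open each round of beta-oxidation. Acadm (chromosome 3, 153922357 to 153944632), for medium chains, stood at 288, 312 and 332 CPM in adult sham and at 253, 216 and 223 CPM in adult burn. In young mice it was 263, 251 and 226 CPM in sham and 269, 137 and 249 CPM in burn, the 137 being replicate 2. The adult groups did not overlap, yet the log2 fold change of -0.43 (SE 0.10) missed the threshold with an edgeR adjusted p of 0.0616, while DESeq2 on the same 11 libraries gave an adjusted p of 0.00609. In young mice the log2 fold change was 0.08 (SE 0.11), and the difference between ages of 0.51 (SE 0.15) had an edgeR adjusted p of 0.291. With replicate 2 the young change turned to -0.18 (SE 0.20) and the difference was 0.25 (edgeR adjusted p = 0.851).

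Acadl (chromosome 1, 66830839 to 66863277), for long chains, was 241, 226 and 268 CPM in young sham and 339, 269 and 309 CPM in young burn. In adult mice it was 278, 305 and 230.4 CPM in sham and 231, 232 and 245 CPM in burn. All 3 young burn mice lay above the young sham mice, by less than 1 CPM for replicate 2, and the adult groups overlapped. The log2 fold changes of 0.42 in young (SE 0.12, edgeR adjusted p = 0.121) and -0.20 in adult mice (SE 0.11, edgeR adjusted p = 0.442) were not called, nor was their difference of 0.62 (SE 0.17, edgeR adjusted p = 0.242). In the 12 libraries the young change was 0.32 and the difference 0.52, with edgeR adjusted p of 0.208 and 0.683.

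The last steps of the cycle are run by HADHB, the beta subunit of the trifunctional protein, and by ACAA2. Acaa2 (chromosome 18) stood at 187, 180.1 and 158 CPM in adult sham and at 119, 113 and 107 CPM in adult burn. In young mice it stood at 158, 150 and 169 CPM in sham and at 217 and 170 CPM in burn replicates 1 and 3, with 90.0 CPM in replicate 2, again the lowest of all. The adult burn mice thus lay apart from the adult sham mice, and young burn replicate 3 was level with the highest young sham mouse. Acaa2 fell by 0.63 on the log2 scale in adult mice (SE 0.11, 0.645-fold, edgeR adjusted p = 0.0179). In young mice its log2 fold change was 0.30 (SE 0.12, edgeR adjusted p = 0.249), and the difference between the ages was 0.93 (SE 0.17, 95% interval 0.58 to 1.28, edgeR adjusted p = 0.0475). Over the 12 libraries the adult change was -0.63, the young change 0.00 and the difference 0.63, with edgeR adjusted p of 0.653, 0.998 and 0.697.

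Hadhb (chromosome 5, 30155248 to 30184593) was not called in either age. It was 203, 223 and 196 CPM in adult sham, 178, 176 and 163 CPM in adult burn, 155, 175 and 176 CPM in young sham, and 211, 117 and 168 CPM in young burn. The adult groups did not overlap, with a log2 fold change of -0.27 (SE 0.11, edgeR adjusted p = 0.265), and the young groups did, with 0.18 (SE 0.12, edgeR adjusted p = 0.489). The difference between the ages was 0.44 (SE 0.16, edgeR adjusted p = 0.343). With all 12 libraries the young value was -0.03 (SE 0.17) and the difference 0.23 (edgeR adjusted p = 0.840).

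Neither Ucp3 nor Ppargc1a was called in any comparison. Ucp3 (chromosome 7, 100472990 to 100486432), a mitochondrial carrier whose level rises with fatty acid supply, was 58.7, 78.4 and 68.3 CPM in young sham and 52.0, 13.7 and 64.4 CPM in young burn. It was 65.1, 54.2 and 91.2 CPM in adult sham and 57.4, 52.8 and 67.6 CPM in adult burn, so the adult groups overlapped. Its log2 fold changes without replicate 2 were -0.23 in young and -0.25 in adult mice, with a difference of 0.02 (95% interval -0.52 to 0.57). With replicate 2, the lowest library, the young value was -0.66 (SE 0.38) and the difference -0.42 (95% interval -1.55 to 0.71), so that both the size of the young change and the sign of the difference rested on that mouse.

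Ppargc1a (chromosome 5, 51454250 to 51567726) encodes PGC-1alpha. It stood at 36.5, 34.2 and 42.2 CPM in young sham, at 42.1, 10.96 and 35.2 CPM in young burn, at 45.1, 40.3 and 43.7 CPM in adult sham, and at 34.7, 35.8 and 39.4 CPM in adult burn. The adult burn mice all lay below the adult sham mice, with a log2 fold change of -0.24 (SE 0.11, edgeR adjusted p = 0.371), and in young mice it was 0.06 (SE 0.13), with a difference of 0.29 (SE 0.17). All 12 libraries gave -0.36 (SE 0.32) in young mice and a difference of -0.12 (SE 0.44), both of the other sign. Replicate 2 of young burn held about the level of the other mice for Cd36, Fabp5 and Acadl, and the lowest level of all 12 libraries for Fabp3, Acadm, Hadhb, Acaa2, Ucp3 and Ppargc1a.

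**Figure D2:**
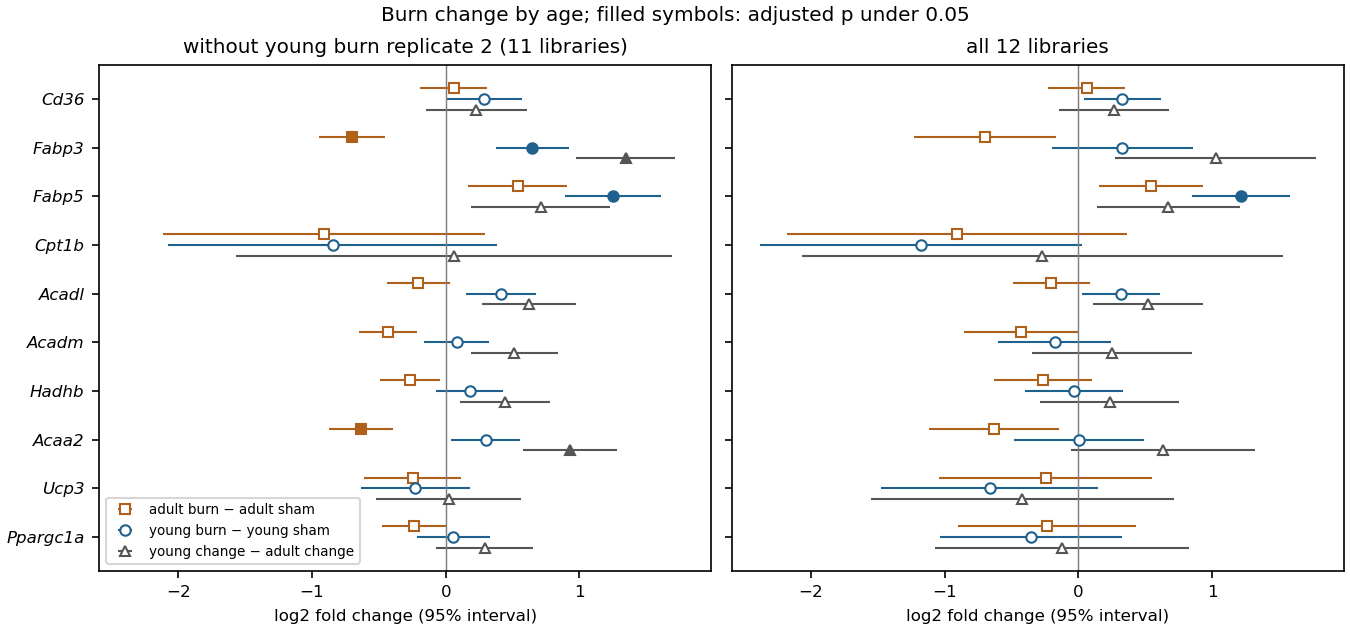
Log2 fold changes (horizontal axis) with 95% intervals of the 10 genes for adult burn, young burn and the young minus adult change, in the 11 libraries (left) and all 12 (right); filled symbols have an edgeR adjusted p under 0.05. On the left, Fabp3 has filled symbols on both sides of 0 and a difference of 1.35; on the right, the Fabp5 rise in young mice is the one filled symbol.

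Counted together, 2 of the 10 genes were called in adult burn, both lower, where 0.909% of all genes tested were called. In young burn 2 were called, both higher, where 0.664% of all genes were. In the difference between the burn effects 2 were called, where 0.0949% of all genes were, that is 12 genes. The log2 fold change was negative for 8 of the 10 genes in adult burn (median -0.26, all genes -0.0037) and positive for 8 of the 10 in young burn (median 0.23, all genes 0.0095). The young change exceeded the adult change for 10 of 10 genes (median 0.48, all genes 0.012), though for Ucp3 and Cpt1b by less than 0.1. Cpt1b, whose counts are no measure of its level, is included in these counts and medians. With all 12 libraries, 0 were called in adult burn (0.00806% of all genes, 1 gene), 1 in young burn (0.0645%) and 0 in the difference (0%), and the young change was the larger one for 7 of 10 (median 0.26). In that setting 893 genes had an unadjusted p under 0.05 for the difference, 3 of them members (Fabp3, Fabp5 and Acadl), and DESeq2 called 1 gene. The calls also rested on single mice. Without adult burn replicate 2, 0 members were called in adult burn, without young burn replicate 3, 0 in young burn, and without young burn replicate 1, 0 in the difference.

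Before any burn the muscle of both ages already differed in 3 of the 10 genes, where 11.8% of all genes were called between young and adult sham. Fabp3 was lower in young sham by a log2 fold change of -0.42 (SE 0.12, edgeR adjusted p = 0.0317), Acadm by -0.34 (SE 0.10, edgeR adjusted p = 0.0429), and Fabp5 was higher by 0.64 (SE 0.18, edgeR adjusted p = 0.0304). After burn the order of Fabp3 was turned. Between young burn and adult burn 4 of 10 were called, all higher in young mice, where 20.7% of all genes were called. These were Fabp5 (1.35, SE 0.17), Fabp3 (0.93, SE 0.13), Acaa2 (0.78, SE 0.12) and Acadl (0.46, SE 0.12), with edgeR adjusted p of 0.000195, 0.000383, 0.000868 and 0.0165. With all 12 libraries 0 were called between the sham groups (3.76% of all genes; 1 member, Fabp5, had an unadjusted p under 0.05) and Fabp5 alone between the burn groups (10.8%). The age comparisons share their mice with the burn comparisons. The sham calls of members fell to 0 without young sham replicate 3 or without adult sham replicate 2. Over all genes 564 and 692 were called in those fits, in that order, against 1488 in the 11 libraries.

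Genes of slow and oxidative fibres fell with Fabp3 and Acaa2 in adult burn. The summed level of 9 such genes was 1504, 2367 and 2678 CPM in adult sham and 1118.5, 995 and 852 CPM in adult burn. In young mice it was 1856, 2151 and 1336.5 CPM in sham and 2321, 772 and 2015 CPM in burn, with the 772 in replicate 2. The 4 libraries with the lowest sums, adult burn replicates 1 to 3 and young burn replicate 2, were also the 4 with the lowest Fabp3 and the 4 with the lowest Acaa2. Among the other libraries the orders differed. Adult sham replicate 3 had the highest sum, but ranked 8 from the lowest for Fabp3 and 7 for Acaa2. Young sham replicate 2 had a higher sum than young burn replicate 3, 2151 against 2015 CPM, with Fabp3 at 289 against 454 CPM. In adult mice 9 of the 9 genes had a negative log2 fold change (median -1.04), and Myh2, Myl2 and Myl3, which encode a fast oxidative myosin and slow light chains, fell by 1.54, 0.95 and 1.04. In young mice 0 of 9 were called, and 1 had an unadjusted p under 0.05. The difference between the ages was called for Myh2 (2.16, SE 0.31, edgeR adjusted p = 0.0127). None of these calls held once young burn replicate 2 was included. Of other markers, the endothelial receptor gene Kdr fell in adult mice by 0.70, from 53.8 to 62.8 CPM in sham to 31.7 to 39.6 CPM in burn. That call was also lost with replicate 2, and the other 9 endothelial markers were not called in adult burn. In young burn 8 of the 10 were positive (median 0.23), 5 with an unadjusted p under 0.05 and 0 called. Their age difference was positive for 9 of 10, with 0 called. Between young and adult burn 10 of 10 were higher in young mice and 6 were called, where 20.7% of all genes were. In the 12 libraries 3 were. The sum of 10 fast and general muscle genes was 108110 to 115780 CPM in adult sham and 105660 to 127120 CPM in adult burn (scaled over the 11 libraries). There 0 of its genes were called, while 1 had an unadjusted p under 0.05. The lowest log2 fold change among them in adult burn was -1.04, that of the myoglobin gene Mb. In young mice, where Fabp3 and Fabp5 rose, the sum was 112980 to 159420 CPM in sham and 101510 to 105570 CPM in burn, without overlap. In young burn 9 of the 10 genes had a negative log2 fold change (median -0.32) and 0 were called. An unadjusted p under 0.05 was found for 5 of them and for the 1 positive value, that of Mb (0.72). The young change of Mb exceeded its adult change by 1.77, and by 1.49 in the 12 libraries. Both had an unadjusted p under 0.05 and neither was called, while the other 9 genes had a negative difference. The part of these genes and of fibre type in the values of Fabp3, Fabp5 and Acaa2 was not tested.

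**Figure D3:**
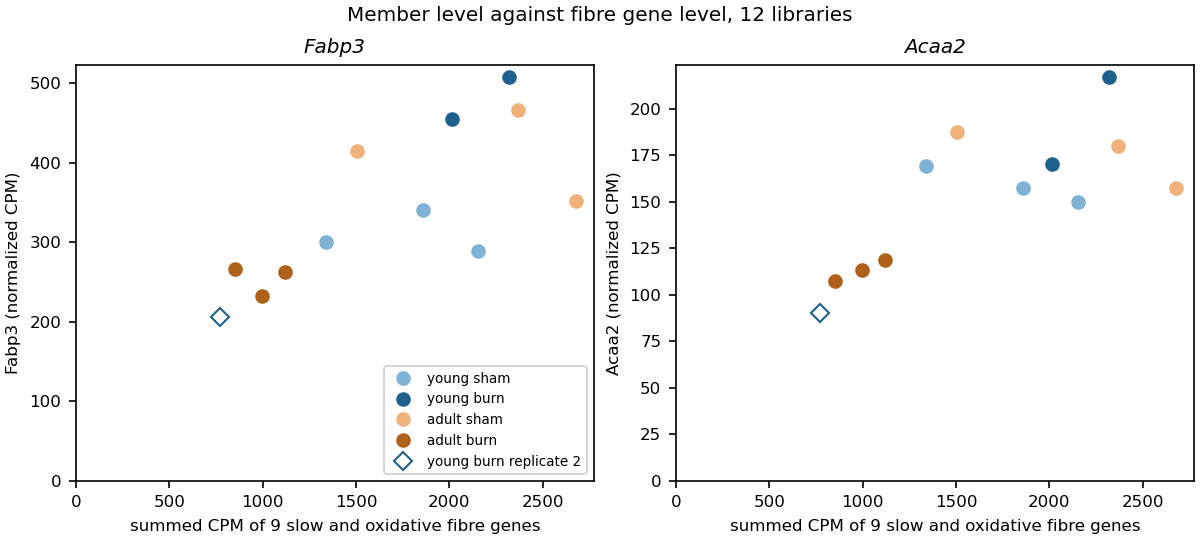
Normalized CPM of Fabp3 (left) and Acaa2 (right) against the summed CPM of 9 slow and oxidative fibre genes, 1 point for each of the 12 libraries, both axes from 0; the open diamond is young burn replicate 2. The 3 adult burn mice and the diamond sit together at the lower left, with fibre sums of 772 to 1118.5 CPM.

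The wider set of fatty acid genes was read through 70 further genes, grouped by role, all of them tested. In adult burn 1 of the 70 was called and in young burn 1, where 0.909% and 0.664% of all genes tested were called. In the difference between the ages 0 were called, against 0.0949% of all genes. There 20 had an unadjusted p under 0.05, as did 11.1% of all genes, and 18 of the 20 had the larger change in young mice. The median log2 fold change was -0.06 in adult and 0.17 in young mice. Among 13 other genes of mitochondrial beta-oxidation, 10 had a negative value in adult burn (median -0.12) and 11 a positive one in young burn (median 0.26), with 0 called in either. In the 12 libraries 0 of the 70 were called in adult burn, in young burn and in the difference. There 7, 16 and 12 had an unadjusted p under 0.05, where 6.87%, 20.3% and 7.2% of all genes tested did.

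Esrrg, a nuclear receptor of the ERR family found in oxidative muscle, fell in adult mice. It stood at 18.2, 17.0 and 30.1 CPM in adult sham and at 8.89, 8.68 and 7.43 CPM in adult burn, without overlap, with a log2 fold change of -1.39 (SE 0.24, edgeR adjusted p = 0.0179). In young mice it was 14.6, 13.6 and 8.53 CPM in sham and 13.4, 4.75 and 9.61 CPM in burn (log2 fold change -0.07, SE 0.28). The difference between the ages of 1.31 (SE 0.37) was not called (edgeR adjusted p = 0.259). With all 12 libraries the adult change of -1.38 had an adjusted p of 0.492, and the young change and the difference were -0.40 and 0.98.

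Pnpla2, which encodes the lipase ATGL that starts the breakdown of stored triglyceride, lay above sham after burn at both ages. Its level was 199.96, 118 and 136 CPM in young sham, 302, 654 and 369.9 CPM in young burn, 285, 314 and 159 CPM in adult sham, and 374, 507 and 463 CPM in adult burn, without overlap at either age. It rose in young mice by a log2 fold change of 1.16 (SE 0.25, edgeR adjusted p = 0.0447), and had 0.82 (SE 0.22, edgeR adjusted p = 0.0994) in adult mice, with a difference of 0.34 (95% interval -0.37 to 1.05). Including replicate 2 the young value was 1.55 (edgeR adjusted p = 0.0623) and the difference 0.72 (95% interval -0.19 to 1.64). Plin5, which coats lipid droplets beside mitochondria, had the next largest change in young burn at 1.10 (SE 0.29, edgeR adjusted p = 0.0910), from 8.91 to 18.3 CPM in sham to 25.3 to 28.3 CPM in burn, and again 1.10 in the 12 libraries.

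**Figure D4:**
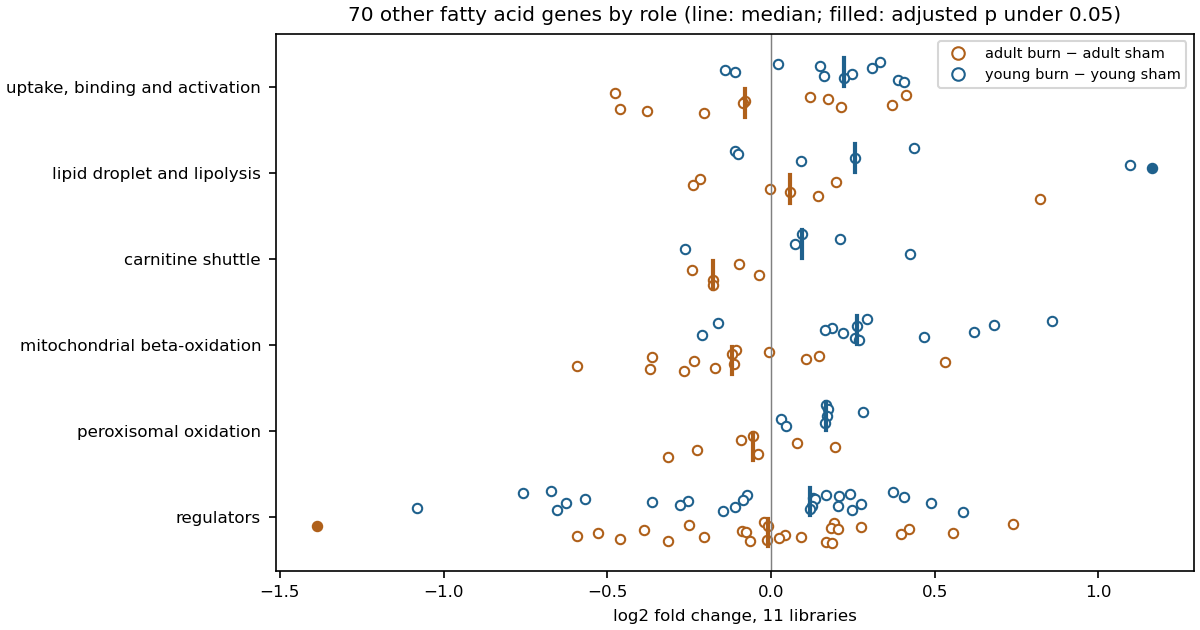
Log2 fold changes (horizontal axis, 11 libraries) of the 70 other fatty acid genes in adult and young burn, in rows by role; each circle is a gene, the short lines are medians, and filled circles have an edgeR adjusted p under 0.05. The medians of mitochondrial beta-oxidation lie at -0.12 in adult and 0.26 in young mice, and the filled circles are Esrrg in adult and Pnpla2 in young burn.

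The largest age differences of the wider set lay in Acadvl and Angptl4. Acadvl, the very long chain dehydrogenase, was lower in young than in adult sham by a log2 fold change of -1.39 (SE 0.21, edgeR adjusted p = 0.00119), at 14.4 to 36.3 CPM against 60.6 to 63.0 CPM. After burn it was 40.0, 71.9 and 45.2 CPM in young mice and 56.2 to 67.6 CPM in adult mice, with a young burn change of 0.86 (SE 0.24, edgeR adjusted p = 0.100) and 1.15 with replicate 2 (edgeR adjusted p = 0.0697). Angptl4, a secreted inhibitor of lipoprotein lipase, was higher in young sham by 2.47 (SE 0.36, edgeR adjusted p = 0.000847), at 9.26 to 22.7 CPM against 2.27 to 3.40 CPM. Its change after burn was -0.76 in young and 0.74 in adult mice, and the difference of -1.496 (SE 0.52) was not called (edgeR adjusted p = 0.337). In the 12 libraries the young change was -0.45 and the difference -1.19, and Angptl4 was called higher in young than in adult burn by 1.29 (edgeR adjusted p = 0.0372). Pdk4, the kinase that spares glucose by blocking pyruvate dehydrogenase, was lower in young burn than in adult burn by a log2 fold change of -0.94 (SE 0.29, edgeR adjusted p = 0.0313), at 104, 190 and 254 CPM against 277, 399.6 and 353 CPM, and in the 12 libraries by -0.91 (edgeR adjusted p = 0.0457). The sham differences of Acadvl and Angptl4 were also called in the 12 libraries, at -1.38 and 2.47. Over the 70 genes, 20 were called between the sham groups, 16 of them lower in young mice, where 11.8% of all genes tested were called. Between the burn groups 18 were called, 11 of them lower in young mice, where 20.7% of all genes were, so that count lay near the share over all genes. In the 12 libraries these counts were 7 and 12, where 3.76% and 10.8% of all genes were called.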

How the data were processed

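Poly-A RNA libraries of 12 mice were used, and the small RNA libraries of the same mice were not used here. The deposited values are raw counts of reads per gene: the authors mapped paired reads to GRCm38 by STAR and took gene counts from its GeneCounts option with Gencode M25, and the submitters' processing notes list STAR 2.7.5c, bcl2fastq 2.20 and featureCounts 2.0.1. Which strand was counted is not stated in them or in the methods. Symbols, positions and exon overlaps were taken from Gencode M21 by gene identifier (260 of 55401 genes had no match), and promoter windows from RefSeq on GRCm38.p6.

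Counts were fitted in edgeR 4.0.16 (R 4.3.3, limma 3.58.1) with TMM scaling, filterByExpr (minimum count 10, minimum total 15), 1 mean per group and the quasi-likelihood F test, two-sided, and p was adjusted by Benjamini-Hochberg across every gene tested. The 11 libraries without young burn replicate 2 and all 12 were fitted apart, and the burn by age difference was a contrast of the 4 group means. RPKM used the summed exon length of a gene, and its means leave out young burn replicate 2. DESeq2 1.42.0, other scalings, no low-count filter, the compared groups alone, a replicate block and the omission of each mouse were alternatives, and the fit was tested on simulated data. Figures were drawn with matplotlib 3.10.9.

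The 10 genes and all lists were chosen with earlier results of these data known. Every member is given in each library. Of the 70 other fatty acid genes, those called in a burn comparison or in the difference were named, with the 2 largest changes per comparison, and of the marker genes those called in a burn comparison or in the difference. Promoters were shown for called members with an entry, other than on chromosome 18. The Ucp3, Cd36 and Acadm sequences, and the library order by fibre genes, were added after values had been seen. The counts carry no molecular identifiers.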

Additional observations from a re-analysis of the deposited data

Results flagged for a closer look

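The burn effects of young and adult mice differed by the test of the difference itself for 2 of the 10 genes, in the 11 libraries without young burn replicate 2. For Fabp3 the log2 fold change in young mice exceeded that in adult mice by 1.35, and for Acaa2 by 0.93, with edgeR adjusted p of 0.00724 and 0.0475. With young burn replicate 2 included the values were 1.03 and 0.63, with edgeR adjusted p of 0.683 and 0.697. The sum of slow and oxidative fibre genes was lowest in the same 4 libraries as both genes, and its part in the 2 values was not tested.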

How the results depend on the processing

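Of the 10 genes, 2 were called in adult burn, 2 in young burn, 2 in the difference between the ages, 3 between the sham groups and 4 between the burn groups. With all 12 libraries these counts were 0, 1, 0, 0 and 1, by edgeR, by DESeq2 and with a replicate block alike. Over all genes the calls there were 1, 8, 0, 467 and 1343 by edgeR, and 7, 443, 1, 659 and 1370 by DESeq2. With the replicate block they were 3, 9, 0, 343 and 1165 over all genes. In the 11 libraries a replicate block gave 2, 1, 1, 1 and 4 members, and 72, 7, 4, 1184 and 1834 of all genes. The mice were not treated as pairs, since those of the same number did not deviate together (correlations from -0.197 to 0.153 over both settings). Without a low-count filter 4 members were called in adult burn (562 of all 28070 genes). With size factors by median of ratios 1 was called in the difference (10 of all 12651 genes). The fit of the compared groups alone called Fabp5 in young burn (49 of all 12272 genes). It also called Fabp5 alone between the sham groups (1163 of all 11868 genes). DESeq2 on the 11 libraries called 3 in adult burn, Acadm being the third (211 of all 28070 genes). Leaving out 1 mouse at a time gave 0 to 3 calls in adult burn, 0 to 2 in young burn, 0 to 2 in the difference, 0 to 3 between the sham groups and 3 to 4 between the burn groups. In adult burn the count was 0 without adult burn replicate 2, and Fabp3 alone was called without adult sham replicate 1 or adult burn replicate 3. In young burn it was 0 without young burn replicate 3, which leaves 1 mouse assumed to vary like the other groups. Fabp5 alone was called there without replicate 2 or 3 of young sham, replicate 1 of young burn, adult sham replicate 1 or adult burn replicate 3. In the difference it was 0 without young burn replicate 1, and Fabp3 alone was called without young sham replicate 1, 2 or 3, adult sham replicate 1 or 2, or adult burn replicate 2 or 3. Between the sham groups it was 0 without young sham replicate 3 or adult sham replicate 2, Fabp5 alone without young sham replicate 2 or adult sham replicate 1, and Fabp3 alone without adult sham replicate 3. Between the burn groups Acadl was lost without young burn replicate 1 or 3. Over all genes the calls moved in these fits too. With 1 mouse left out, 25 to 161 genes were called in adult burn (115 in the 11 libraries). Between the sham groups 564 to 1772 were called (1488). Where both young burn mice stayed in, 7 to 203 were called in young burn (84) and 4 to 31 in the difference (12). Between the burn groups 1725 to 2837 were called there (2623). Without young burn replicate 1 or 3, 1 young burn mouse is left. The cause of the lost member calls was not tested. No called value changed sign, while 53 log2 fold changes that were not called did. Of the 40 group levels, 5 moved by more than 1 SD with all 12 libraries, all in young burn, 4 with library size alone, and 0 with median-of-ratios factors or without a single mouse. The fit of the compared groups alone gave no Cpt1b value in adult burn or between the burn groups. Depth limited Cpt1b, at 2 to 15 counts.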
